A study of Mus musculus with 6 samples.

Results

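Solute carrier genes were described in circulating donor CD8+ T cells of the BM by bulk RNA-Seq of 6 libraries. The members were the gene symbols that begin with Slc and a digit and whose normalized count was 10 or more in 3 or more of the 6 libraries. Of 14051 listed genes 276 had such a symbol, and 222 of these met the count rule and were members. They were selected on these counts alone, so that a member is detected is not a finding. Just inside the rule stood Slc12a3, a sodium-chloride cotransporter, whose 3rd highest normalized count was 10.4, and just outside it stood Slc24a3, for which that value was 9.82. The 54 symbols outside the rule included Slc4a1, the band 3 anion exchanger of red cells, which was at 9.52 in GC-treated 1, at 41.1 in vehicle-treated 2 and at 0 in the other libraries. Slc2a3, which encodes the glucose carrier GLUT3, was not analysed here.

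The 3 GC-treated libraries came from B6D2F1 recipients given dexamethasone at 5 mg/kg/day i.p. from day -1 to day 5 around BMT, and the 3 vehicle-treated libraries from recipients given methyl β-cyclodextrin over those days. All recipients were irradiated and received purified CD3+ T cells of B6.CD45.1 donors, so every library holds congenic donor cells from a partly mismatched host. On day 5, donor CD45.1+ CD8+ cells that an i.v. anti-CD45 antibody had reached were sorted from the BM of 2 to 3 mice taken as a pool. The sources used here give neither ages nor whether each library had a pool of its own, so the p-values measure only the spread between these samples, which may be technical. A normalized count is a library's read count divided by its size factor, made by the authors. Depth ran from 60949593 to 76888118 reads per library, counted over the listed genes.

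Solute carriers are membrane proteins that move small molecules across the plasma membrane and across the membranes of mitochondria, lysosomes, the endoplasmic reticulum and the Golgi apparatus. An activated CD8+ T cell takes up glucose, glutamine, leucine and arginine through them and releases lactate, and amino acid supply feeds the mTORC1 pathway. Ion carriers of the family set cell volume, pH and chloride, and nucleoside carriers bring in nucleosides for salvage.

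The promoters of 3 members that recur below are shown. They are the amino acid carrier heavy chain Slc3a2, the potassium-chloride cotransporter Slc12a7 and its family member Slc12a9. Each runs from 250 bases before to 50 after the most upstream start in RefSeq (GRCm38.p6), written 5′ to 3′ along the gene. Capitals mark the GC box GGGCGG and the E-box CACGTG, read on both strands, which do not overlap each other here. The promoters of Slc35b1, Slc31a1 and Slc25a5 were also read and held no E-box.
Slc3a2, chr19:8713848-8714147, minus strand: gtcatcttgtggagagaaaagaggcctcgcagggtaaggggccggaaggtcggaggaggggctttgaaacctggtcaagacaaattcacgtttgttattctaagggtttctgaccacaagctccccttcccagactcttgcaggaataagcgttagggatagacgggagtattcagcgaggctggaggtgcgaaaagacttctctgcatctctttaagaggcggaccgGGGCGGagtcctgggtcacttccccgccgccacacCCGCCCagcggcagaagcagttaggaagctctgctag
Slc12a7, chr13:73763410-73763709, plus strand: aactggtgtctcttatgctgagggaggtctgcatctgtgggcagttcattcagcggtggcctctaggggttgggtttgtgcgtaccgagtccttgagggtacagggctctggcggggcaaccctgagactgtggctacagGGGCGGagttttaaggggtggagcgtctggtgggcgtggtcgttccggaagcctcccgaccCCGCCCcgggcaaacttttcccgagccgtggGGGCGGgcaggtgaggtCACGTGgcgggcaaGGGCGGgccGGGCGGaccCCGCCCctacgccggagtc
Slc12a9, chr5:137333533-137333832, minus strand: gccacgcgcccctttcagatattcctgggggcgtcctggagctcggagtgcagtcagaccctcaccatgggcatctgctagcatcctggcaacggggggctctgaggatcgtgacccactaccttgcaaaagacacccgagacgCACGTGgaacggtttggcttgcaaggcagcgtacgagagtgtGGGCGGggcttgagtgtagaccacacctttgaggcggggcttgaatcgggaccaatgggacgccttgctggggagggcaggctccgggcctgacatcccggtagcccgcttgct
The GC box was in 67.8% of the 171 members with a promoter in that table and in 64.9% of the 9205 tested genes with one. The E-box, the sequence that MYC and related factors read, was in 11.1% and 10.3%. The amino acid response sequence TGATGNAA was in 4.09% (7 members) and 2.29%. AGAACA, 1 arm of the glucocorticoid response element, was in 12.9% and 12%, and the full palindromic element, which holds it on both strands, in 0 of both. The shares of carriers and of all tested genes were thus near each other for the GC box, the E-box and AGAACA, and a match is a description of the sequence alone.

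Checks of the labels came first. Values of a gene by library are given below for GC-treated 1, 2 and 3, in that order, against those for vehicle-treated 1, 2 and 3. Fkbp5, which glucocorticoids induce in many cells, had normalized counts of 21148, 16401 and 14780 against 24888, 32705 and 21271. Every library labelled GC-treated was therefore below every vehicle-treated one for this gene, the reverse of an induction. Tsc22d3, another such target, overlapped between the groups, at 1521, 3267 and 4689 against 2619, 4755 and 2994. Dusp1, a phosphatase gene that glucocorticoids also induce, ran with the labels, at 9343, 8495 and 6076 against 6151, 5872 and 5048, although GC-treated 3 lay below vehicle-treated 1. Of the 9 tested genes of this target list 6 had a negative difference, and at an unadjusted p under 0.05 limma had 1 higher (Dusp1) and 1 lower (Fkbp5), with none past adjustment. Genes of this list thus stood on both sides. Of 13 T cell and CD8 genes 12 were measured, and these were abundant. Their mean normalized counts ran from 15649 to 145883, the latter for Ptprc (CD45), beside a median of 1997 over all genes tested. Of these 12, 10 had a positive difference, with a median of 0.10, and 0 reached an unadjusted p under 0.05 in limma. Without GC-treated 1 the median was 0.18 and 4 were higher at that p, beside 8.34% of all genes. Their sums overlapped, at 652685, 761058 and 756468 against 693058, 642419 and 696499. Of 15 neutrophil markers 12 were tested, and their summed normalized counts were 2005, 14781 and 10657 in the GC-treated libraries and 889, 804 and 4995 in the vehicle-treated ones. In this sum GC-treated 1 stood below the other GC-treated libraries and vehicle-treated 3 above the other vehicle-treated ones. The sum of the marrow stroma genes set GC-treated 3 apart, at 1638 where the other libraries ran from 499 to 1091. Cxcl12 was at 721 there against 11.9 to 58.4 elsewhere. Vcam1, the highest gene of that list, did not set it apart, at 415, 478 and 563 against 540, 706 and 1019. Of the 5 tested stroma genes 3 had a positive and 2 a negative difference. Member counts are therefore given without each library in turn, and single values mostly without GC-treated 1. The 8 CD4 T cell genes summed to 5551, 5691 and 5788 against 7109, 7680 and 6002, lower in every GC-treated library. Ctla4 weighed most in this sum, with a mean normalized count of 3713. All 8 differences were negative, and for 2 of the genes the groups did not overlap. Cd4 itself overlapped, at 106, 86.3 and 164 against 97.1, 138 and 178. Of 11 tested monocyte and macrophage genes 9 had a negative difference, and their sums overlapped between the groups. Among them Cd163 was at 105, 105 and 95.6 against 340, 250 and 246 (DESeq2, adjusted p = 0.0094). Of 7 tested erythroid genes 5 were negative, and Hba-a1 and Hba-a2 were lower in every GC-treated library. The erythroid sums overlapped, but Tfrc weighed most in them, with a mean normalized count of 8812 beside 221 for Hba-a1. These sums thus say little of the other erythroid genes. The part of these markers in the results below was not tested. Directions are those of the labels throughout. In bulk samples, fewer cells of a type and less RNA per cell cannot be told apart.

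No solute carrier passed the test between the labelled groups. limma was run on log2(normalized count + 1) over 11649 genes, with Benjamini-Hochberg adjustment over all of them and a threshold of 0.05. It called 0 of 222 members, against 0% of all genes, and edgeR (0% of all genes) and DESeq2 (0.0172%) on the recovered reads called 0 members as well. At an unadjusted p under 0.05 limma had 8 members (3.6%), 3 higher and 5 lower in the GC-treated libraries, against 7.19% of all genes (2.12% higher and 5.07% lower). edgeR had 6 members against 6.08% of all genes, and DESeq2 had 7 against 7.63%. The groups did not overlap for 7 members higher in the GC-treated libraries and 13 lower, or 9.01% of members against 12.8% of all genes (6.4% in each direction). Members thus reached these marks in a smaller share than the table as a whole. The smallest adjusted p of a member was 0.62 in limma.

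The counts moved with single libraries. Without GC-treated 1, limma had 6 members higher and 18 lower at an unadjusted p under 0.05 (10.8%), where all genes stood at 20.6% (8.34% higher and 12.2% lower), and 0 members at an adjusted p under 0.05, where 45 genes (0.386%) passed. Without GC-treated 2 there were 1 higher and 10 lower, or 4.95% of members beside 5.14% of all genes, and without GC-treated 3 there were 0 and 3, or 1.35% beside 3.91%. Without vehicle-treated 1 there were 1 and 1 (0.901% beside 2.94%), and without vehicle-treated 2 there were 0 and 2 (0.901% beside 2.35%). Without vehicle-treated 3 there were 3 and 6 (4.05% beside 6.55%). With the replicate number as a block there were 1 and 7 (3.6% beside 8.44%). In each of these fits the share of members was below that of all genes.

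The total share of reads on members was much the same in all 6 libraries, which does not show that single carriers were. Members took 1.03% to 1.06% of each library's reads. Of the 222, 115 had a mean normalized count of at least 1000 and 57 a mean under 100, and 13 were at 0 in at least 1 library. Exon lengths were found for 220 members, which allows levels to be compared between genes as the mean normalized count per kb of exon. On that scale Slc25a5, which encodes the ADP/ATP carrier ANT2 of the inner mitochondrial membrane, was first at 49947 per kb. It alone took 11.8% to 15.1% of the members' reads. Next came its paralogue Slc25a4 (ANT1) at 6154, Slc7a5 at 4092, Slc1a5 at 4028, Slc35a4 at 3982 and Slc25a3 at 3796 per kb. Levels of 70 members are uncertain because they overlap another coding gene and the library kit does not mark strand.

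**Figure D1:**
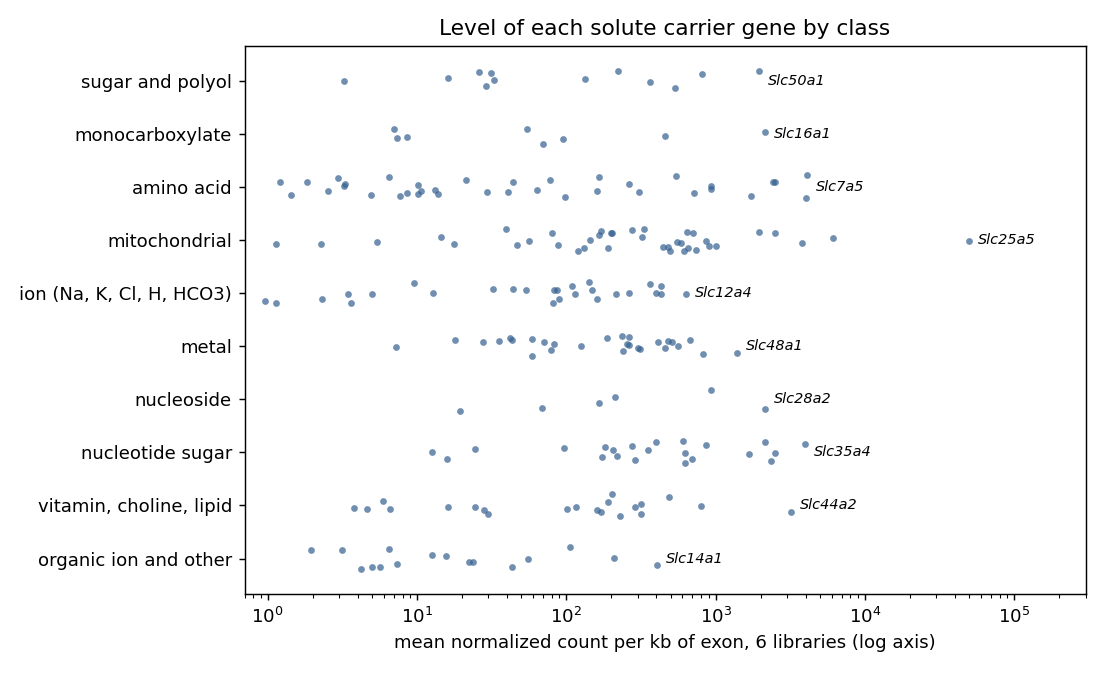
Mean normalized count per kb of exon over the 6 libraries (log axis) for each member, by carrier class, with the highest member of each class named. Slc25a5 stands at 49947 per kb, and the next member, Slc25a4, at 6154. The small phosphate class and the 4 proteins named after a carrier are not drawn.

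For the main carriers of glucose and lactate the groups overlapped. Slc2a1, the glucose carrier GLUT1 (GRCm39 chr4:118965908-118996365), had normalized counts of 3690, 3945 and 3809 against 3542, 3578 and 4122. Vehicle-treated 3 was the highest library and vehicle-treated 1 the lowest, so the GC-treated libraries lay inside the vehicle range. The log2 difference was 0.03 with a 95% interval of -0.19 to 0.25 (limma, adjusted p = 0.93). Slc16a1, the lactate and pyruvate carrier MCT1, was at 10998, 9999 and 12041 against 10157, 11472 and 13252, a log2 difference of -0.07 (interval -0.34 to 0.19). Per kb of exon it stood 21.5 ± 0.876 times above Slc16a3, the lactate exporter MCT4, in the GC-treated libraries and 23.7 ± 2.69 times above it in the vehicle-treated ones (mean ± SD, n = 3 each). Slc16a6, a monocarboxylate carrier of the same family, had the smallest p of its class, with 4197, 5051 and 5480 against 4129, 3501 and 4695. Its groups overlapped, because vehicle-treated 3 exceeded GC-treated 1.

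In the sugar and polyol class 4 of 12 members had a negative log2 difference, and the class median was 0.07, beside -0.01 over all genes tested. Slc50a1, a sugar carrier of the SWEET family, was the highest of the class per kb of exon, at 1950. Slc5a3 encodes the sodium and myo-inositol cotransporter that cells use against osmotic stress, and its normalized counts were 483, 285 and 124 against 431, 476 and 387. GC-treated 3 was far below the rest while GC-treated 1 was the highest library. The log2 difference was -0.74, or -1.19 without GC-treated 1 (limma, adjusted p = 0.62 and 0.13). The gene shares its locus with Mrps6, so its reads are uncertain.

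The main amino acid carriers were abundant, and their differences were small. Slc3a2 (CD98) carries light chains such as Slc7a5 to the cell surface (GRCm39 chr19:8684245-8701108). Its normalized counts were 11464, 12636 and 13387 against 11315, 10164 and 10905. The lowest GC-treated library exceeded the highest vehicle-treated one by a narrow margin. The log2 difference was 0.21 with an interval of 0.01 to 0.41, or 0.27 without GC-treated 1, and neither passed (limma, adjusted p = 0.62 and 0.15).

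Slc7a5 (LAT1), which brings in leucine and other large neutral amino acids, was at 17390, 13257 and 17509 against 14952, 14456 and 16730. GC-treated 2 was the lowest of all libraries and the other GC-treated libraries the highest. Per kb of exon the ratio of Slc3a2 to Slc7a5 was 0.543, 0.785 and 0.629 in the GC-treated libraries and 0.623, 0.579 and 0.537 in the vehicle-treated ones, which overlapped. Slc1a5 (ASCT2), a glutamine carrier, was at 20737, 23930 and 22532 against 20916, 21210 and 21625, with GC-treated 1 the lowest. Its log2 difference was 0.07 (interval -0.11 to 0.26).

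Other carriers of glutamine and arginine had their lowest values in GC-treated 3. Slc38a1 (SNAT1) was at 20038, 16180 and 13895 against 18134, 19100 and 17672. GC-treated 1 was thus the highest library and the other GC-treated libraries were the lowest. Slc38a2 (SNAT2) was at 12410 in GC-treated 3 and between 16850 and 18780 in the other 5. Slc7a1, the arginine carrier CAT1, was at 3832, 3083 and 2930 against 3710, 3974 and 4072. GC-treated 1 lay among the vehicle-treated libraries, and the log2 difference was -0.26, or -0.38 without that library (limma, adjusted p = 0.62 and 0.11).

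**Figure D2:**
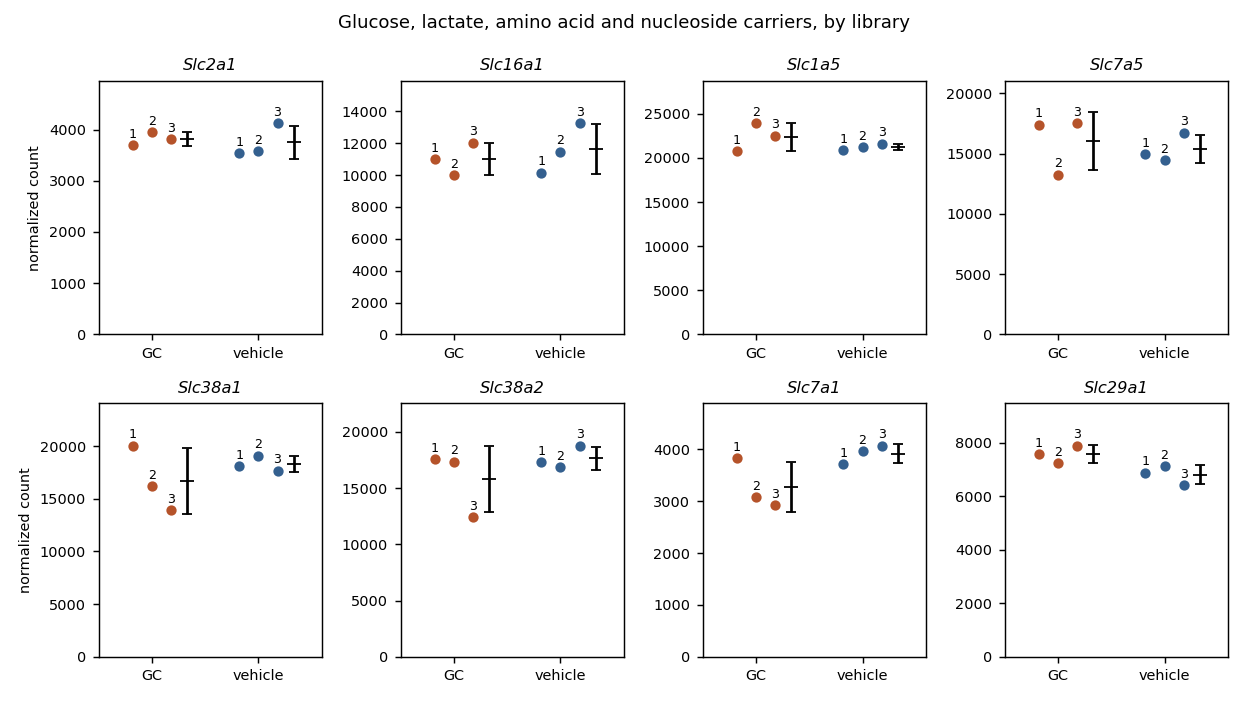
Normalized count of 8 uptake carriers in each library (points, numbered by replicate; bars are mean ± SD, n = 3 per labelled group; axes start at 0). Of these, Slc29a1 is the one whose groups do not overlap, with 7232 to 7888 in the GC-treated and 6424 to 7121 in the vehicle-treated libraries.

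Less abundant amino acid carriers were more variable. Slc7a7, which exchanges cationic and neutral amino acids, had normalized counts of 45, 29.8 and 63.4 in the GC-treated libraries and 88.3, 81.1 and 81.4 in the vehicle-treated ones. The groups did not overlap, and the log2 difference was -0.91 (interval -1.80 to -0.02), but Slc7a7 overlaps Oxa1l and is low, so the value is uncertain. Slc7a11, the cystine and glutamate exchanger xCT, was at 233, 215 and 268 against 188, 267 and 121 and overlapped. In the whole amino acid and peptide class 22 of 36 members had a negative difference, the median was -0.15, and 1 was higher and 1 lower at an unadjusted p under 0.05. That is 61.1% negative and 5.56% at that p, beside 51.5% and 7.19% of all genes. The class median was 0.00 without GC-treated 3.

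Mitochondrial carriers included the most abundant members, and their differences were small. Slc25a5 (GRCm39 chrX:36059223-36062462) had normalized counts of 85562, 85670 and 106705 against 84094, 81016 and 86493. GC-treated 3 stood above the rest, and the remaining 5 libraries lay together. The log2 difference was 0.14 with an interval of -0.09 to 0.36 (limma, adjusted p = 0.65). Slc25a4 was at 18068, 16502 and 21798 against 17378, 18546 and 16885, again with GC-treated 3 the highest. Per kb of exon Slc25a5 was 8.27 ± 0.387 times Slc25a4 in the GC-treated libraries and 7.99 ± 0.637 times in the vehicle-treated ones (mean ± SD, n = 3 each). These paralogues are similar in sequence, so some reads could be assigned to either.

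The phosphate carrier Slc25a3, which supplies ATP synthase, was at 25086 to 29076 in the GC-treated and 23990 to 25759 in the vehicle-treated libraries. Slc25a1, the citrate carrier that exports carbon for lipid synthesis, was at 2033, 2174 and 2612 against 2089, 1682 and 1859. It had the smallest p among the positive differences of its class, with a log2 difference of 0.27 (limma, adjusted p = 0.62), and its groups overlapped. Slc25a35, an orphan carrier that overlaps Rangrf, was at 238, 256 and 163 against 281, 355 and 286, a log2 difference of -0.51. Of the 39 mitochondrial carriers 16 (41%) had a negative difference, beside 51.5% of all genes, and the median was 0.03. At an unadjusted p under 0.05 limma had 0 of them, beside 7.19% of all genes, and edgeR and DESeq2 also had 0. Without GC-treated 1, 2 carriers (5.13%) reached it, beside 20.6% of all genes.

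**Figure D3:**
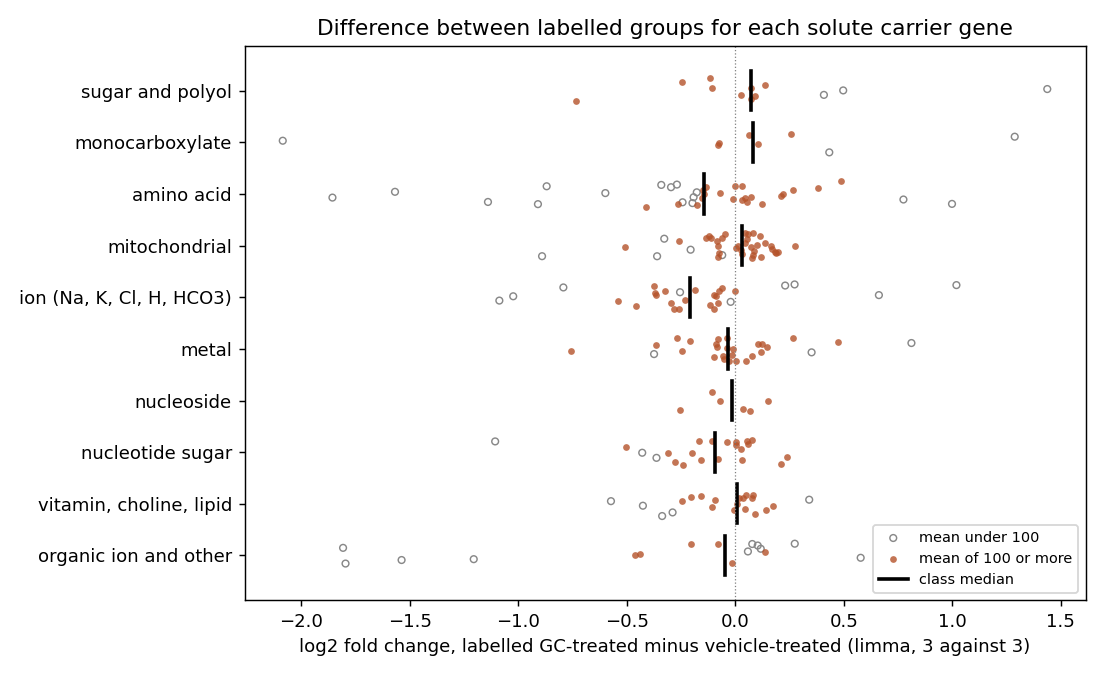
log2 fold change, labelled GC-treated minus vehicle-treated, of each member by class (limma, 3 against 3 libraries; open points have a mean normalized count under 100, bars are class medians). The class of sodium, potassium, chloride, proton and bicarbonate carriers has the lowest median, -0.21, with 24 of 28 members below 0. The phosphate class and the 4 proteins named after a carrier are not drawn.

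Most ion carriers had values below 0. Of 28 carriers of sodium, potassium, chloride, protons, bicarbonate and related anions, 24 (85.7%) had a negative log2 difference, beside 51.5% of all genes tested, and the median was -0.21. At an unadjusted p under 0.05, 4 were lower (14.3%) and 0 higher, beside 5.07% and 2.12% of all genes, and 0 passed after adjustment in limma, edgeR or DESeq2. In edgeR and in DESeq2 22 of 28 were negative. Without GC-treated 1 the median was -0.29 with 23 of 28 negative. Without GC-treated 3 it was -0.12 with 17 of 28 (60.7%) negative, and without vehicle-treated 3 it was -0.30 with 21 of 28. The 4 lower carriers became 1 without vehicle-treated 1, 1 without vehicle-treated 2, and 2 without GC-treated 3 or with no trend in limma. These shares were not tested, and members of a class are not replicates. The summed neutrophil markers were also highest in GC-treated 2 and 3, and the summed stroma genes in GC-treated 3. Their part in this was not tested.

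Of those 4 ion carriers, 3 were members of the Slc12a family of cation-chloride cotransporters. That count was 0 without vehicle-treated 1, 0 without vehicle-treated 2, 1 without GC-treated 3 and 1 with no trend in limma. The share of all genes at that p fell as well, from 7.19% to 2.94%, 2.35%, 3.91% and 4.81% in that order. The drop in the count does not show by itself that it rested on single libraries. The median difference of the family was -0.27 without vehicle-treated 1, -0.23 without vehicle-treated 2 and -0.21 without GC-treated 3. Slc12a2 (NKCC1), which brings sodium, potassium and chloride into the cell, had normalized counts of 1642, 1004 and 1097 against 1682, 1702 and 1643. GC-treated 1 stood at the vehicle level and the other GC-treated libraries well below it. The log2 difference was -0.46 with an interval of -0.87 to -0.05, and -0.67 without GC-treated 1 (limma, adjusted p = 0.62 and 0.064).

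Slc12a7 (KCC4), which moves potassium and chloride out, was at 4615, 5289 and 4193 against 6213, 5632 and 5282. The groups overlapped, since GC-treated 2 was just above vehicle-treated 3, and the log2 difference was -0.28. Slc12a9, a related protein of uncertain transport activity, was at 570, 650 and 585 against 826, 785 and 721, all GC-treated libraries below all vehicle-treated ones. Its log2 difference was -0.37 (interval -0.69 to -0.05). For Slc12a4 (KCC1) the difference was -0.07 and the groups overlapped. Of the 8 Slc12a members 7 were negative, with a median of -0.32.

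Among the other ion carriers, Slc26a2, a sulfate carrier needed for sulfated glycans, had the smallest unadjusted p of all members. Its normalized counts were 1804, 1663 and 1092 in the GC-treated libraries and 2064, 2219 and 2201 in the vehicle-treated ones. All GC-treated libraries were lower, GC-treated 3 by the most, and the log2 difference was -0.54 with an interval of -0.95 to -0.13 (limma, adjusted p = 0.62). Without GC-treated 3 it was -0.32.

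Slc4a7, a sodium bicarbonate cotransporter, was at 1743, 1582 and 1267 against 1729, 1954 and 1769, where GC-treated 1 exceeded vehicle-treated 1. Slc8b1, the mitochondrial sodium and calcium exchanger, had a log2 difference of -0.32 with overlapping groups.

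Regulators that switch these cotransporters on and off, 4 kinases and the scaffold protein Cab39, were listed apart. Of the 4 kinases 3 had a negative log2 difference, Cab39 was at -0.003, and 0 reached an unadjusted p under 0.05 in limma. Wnk1, Stk39 and Oxsr1 are given with their values known. Stk39 (SPAK), a kinase that acts on the cotransporters themselves, was at 13521, 13910 and 15272 against 13137, 12835 and 13351. It was higher in every GC-treated library, and its log2 difference was 0.12 (limma, adjusted p = 0.64). Oxsr1, another kinase of the list, went the other way, at 6101, 3729 and 4232 against 6327, 8100 and 4644. Its groups overlapped, with a log2 difference of -0.43 (limma, adjusted p = 0.62). Wnk1, a kinase that acts on Stk39, was at 7997, 6080 and 4646 against 8003, 7841 and 7886. As with Slc12a2, GC-treated 1 was at the vehicle level.

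**Figure D4:**
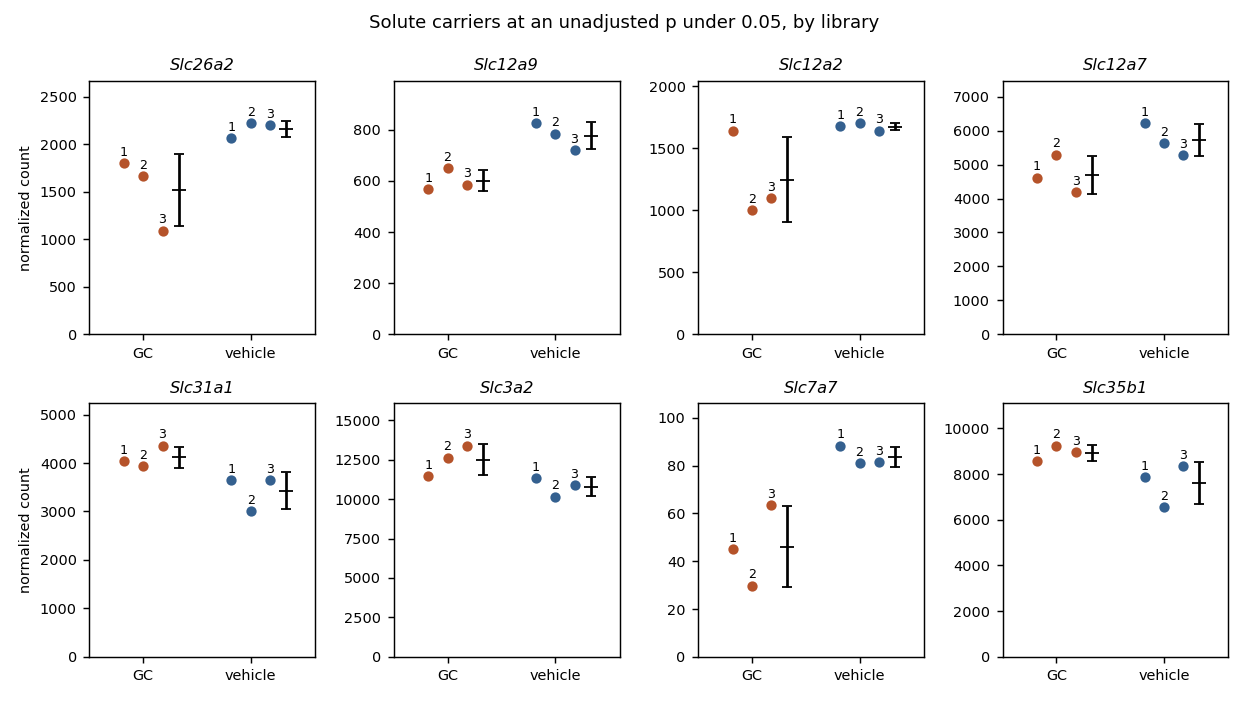
Normalized count in each library of the 8 members with an unadjusted limma p under 0.05 (points, numbered by replicate; bars are mean ± SD, n = 3 per labelled group; axes start at 0). The first panel, Slc26a2, runs from 1092 to 1804 in the GC-treated and from 2064 to 2219 in the vehicle-treated libraries, and none of the 8 passed adjustment.

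Nucleoside carriers showed small differences. Slc29a1 (ENT1), the equilibrative carrier of the plasma membrane (GRCm39 chr17:45896125-45910733), had normalized counts of 7585, 7232 and 7888 against 6878, 7121 and 6424. The groups did not overlap, and the log2 difference was 0.15 with an interval of -0.04 to 0.35 (limma, adjusted p = 0.62). Slc28a2, a sodium-coupled nucleoside carrier, was the highest of the class per kb of exon, at 2146. Its counts were 9378, 12206 and 10460 against 9733, 9281 and 11556 and overlapped, and reads of its near copy Slc28a2b could be split between them. Slc29a2 (ENT2) was at 287, 374 and 310 against 276, 439 and 466, and Slc29a3, the lysosomal carrier, was at 1590, 1677 and 1096 against 1373, 1766 and 1505. Of the 6 nucleoside carriers 3 were negative, and 0 reached an unadjusted p under 0.05 in limma, edgeR or DESeq2.

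Carriers of metals were mostly level. Slc31a1 (CTR1), which takes up copper, had normalized counts of 4046, 3938 and 4358 in the GC-treated libraries and 3651, 3001 and 3643 in the vehicle-treated ones. The groups did not overlap and the log2 difference was 0.27 (interval 0.02 to 0.51), but Slc31a1 overlaps Cdc26 and Fkbp15. Slc39a10, a zinc importer, was at 3184, 3024 and 2498 against 3281, 3286 and 3437, without overlap, a log2 difference of -0.21. Of the 28 metal carriers 17 had a negative difference, with a median of -0.03. Slc39a6, a zinc importer and the most read metal carrier by count, was at 8998, 9766 and 8655 against 9145, 8815 and 10459 and overlapped. Slc11a2, the iron carrier DMT1, varied the least of all members, between 3402 and 3517. Slc40a1, the iron exporter ferroportin, ranged from 512 to 1090 within the GC-treated libraries alone.

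In the nucleotide sugar class, Slc35b1, an ATP carrier of the endoplasmic reticulum, was at 8570, 9241 and 8966 against 7878, 6567 and 8343. All GC-treated libraries were higher, and the log2 difference was 0.24 (interval 0.00 to 0.48; limma, adjusted p = 0.62). Slc35c1, which carries GDP-fucose into the Golgi apparatus, was at 8787, 8980 and 8057 against 9830, 9556 and 9559, all GC-treated libraries lower, a log2 difference of -0.17. Slc35a1, the carrier of CMP-sialic acid, overlapped between the groups. The choline carrier family member Slc44a2 was at 31419, 34275 and 26621 against 32336, 36584 and 33628. The folate carrier Slc19a1, the taurine carrier Slc6a6 and the phosphate carrier Slc20a1 had log2 differences of 0.08, -0.07 and -0.06 with overlapping groups.

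Further mitochondrial and lysosomal carriers overlapped between the groups. Slc25a11, the oxoglutarate carrier, was at 10019, 10695 and 12096 against 9855, 9799 and 10459, and Slc25a39, a carrier tied to mitochondrial glutathione, had a log2 difference of 0.04. Slc38a9, the lysosomal arginine sensor that acts on mTORC1, was at 768, 1249 and 575 against 851, 795 and 765. GC-treated 2 was its highest library and GC-treated 3 its lowest, so both extremes were GC-treated libraries. Slc15a4, a lysosomal carrier of histidine and peptides, had a log2 difference of 0.00 (interval -0.23 to 0.23). The nucleotide sugar class had 13 of 22 members negative with a median of -0.09, and the vitamin, choline and lipid class 10 of 21 with a median of 0.01.

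The lowest members had the widest differences and the least support. Slc16a11, a monocarboxylate carrier, was at 20.8, 0 and 11.9 against 37.1, 24.9 and 20.9, and Slc18a1, a vesicular amine carrier, was at 19.0, 2.98 and 8.27 against 18.5, 46.5 and 32.3. These differences depend on the scale, since that of Slc16a11 was -2.08 in limma and -1.32 in edgeR. For the 57 members with a mean under 100 the median SD over the libraries was 0.86 on the log2 scale, beside 0.80 over all genes of that level. None of them passed adjustment in limma, edgeR or DESeq2, and at an unadjusted p under 0.05 limma had 1 of them, Slc7a7.

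Libraries differed among themselves in which carriers stood low. Of 186 members with a mean of at least 50, GC-treated 3 was the lowest library for 60 (32.3%), where it was the lowest for 30.2% of all genes of that level. It was the highest library for 37 members (19.9%), where it was the highest for 29.7% of all genes. In the ion class the median deviation from each gene's mean was 0.11, -0.07 and -0.29 on the log2 scale in the GC-treated libraries against 0.14, 0.24 and 0.05 in the vehicle-treated ones. GC-treated 1 therefore lay within the vehicle range for this class. The median SD of members over all 6 libraries was 0.21 on the log2 scale, beside 0.19 over all genes, and 0.14 for both among genes with a mean of at least 1000.

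**Figure D5:**
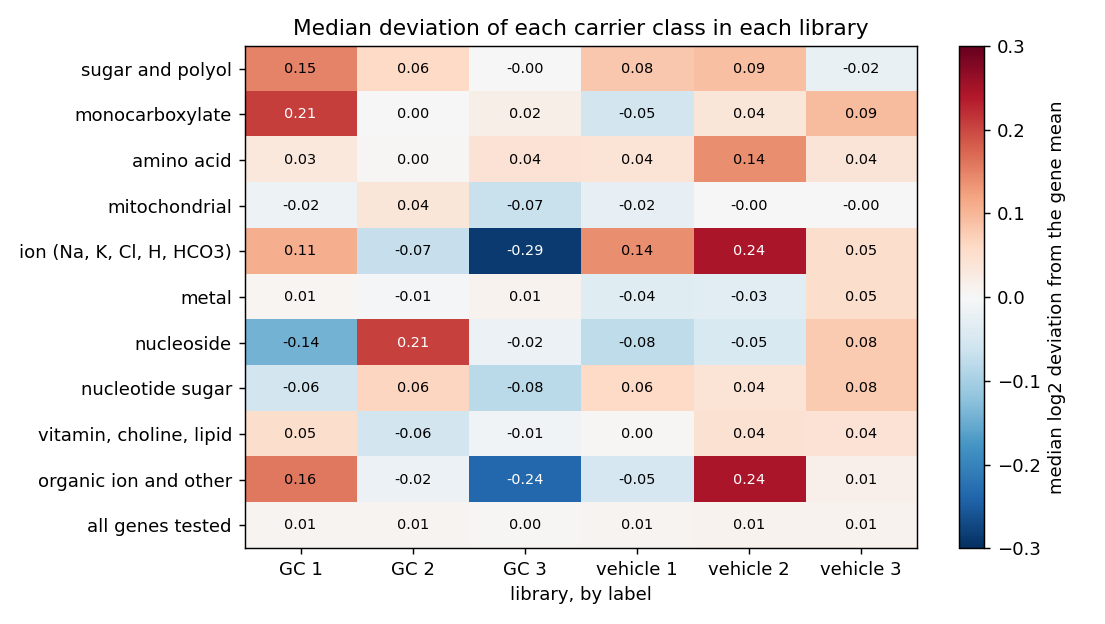
Median log2 deviation from each gene's mean over the 6 libraries, for each carrier class (rows) in each library (columns, by label). The ion class runs from -0.29 in GC-treated 3 to 0.24 in vehicle-treated 2, while all genes tested stay near 0. The phosphate class and the 4 proteins named after a carrier are not drawn.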

How the data were processed

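Bulk RNA-Seq of 6 libraries, 3 labelled GC-treated and 3 vehicle-treated, was used. The authors aligned reads with STAR to GRCm39, counted them per gene with summarizeOverlaps and deposited a signal, each library's counts divided by a size factor; bcl2fastq and DESeq2 are named in the submitters' processing notes, with versions not given in the sources used here. In each library, every value was a whole multiple of 1 read's worth (100% within 0.001), which gave back the reads; the step of GC-treated 2 lies too near 1 for the automatic check to judge. limma 3.58.1 (R 4.3.3) with a trend was run on log2(value + 1) for the 11649 genes at 10 or more in 3 or more libraries; edgeR 4.0.16 and DESeq2 1.42.0 on recovered reads were alternatives. Fold changes are on that scale, and those of genes near 0 depend on the pseudocount. In 3 against 3 libraries an exact permutation test cannot go below 0.1.

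The members and gene lists were chosen with earlier results of these data known. Named genes were carriers from a list of 41, and the highest member per kb and the 2 smallest p values of each class. Non-overlapping members at an unadjusted p under 0.05 were also named. Wnk1, Stk39, Oxsr1, Cab39, Fkbp5, Tsc22d3, Dusp1, Cxcl12, Cd4, Cd163, Hba-a1, Hba-a2 and genes of the closing section were named after their values were seen. Exon lengths and coordinates are from Gencode M39. Other settings were other scaling, tests, filters and pseudocounts, no trend, a replicate block, and the fit without each library in turn. The rule also names a carrier that is not reported here.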

Additional observations from a re-analysis of the deposited data

How the results depend on the processing

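Of 63 named members, 44 kept the sign of their log2 difference under every other setting that gave a value (15, or 14 for the 4 that a filter at 50 removes) and 19 did not, 18 of these only when a library was left out. Leaving out each library in turn, the log2 differences of those 19 ranged as follows: Slc11a1 -0.61 to 0.12, Slc12a4 -0.22 to 0.019, Slc15a4 -0.064 to 0.051, Slc16a1 -0.17 to 0.025, Slc19a1 -0.014 to 0.17, Slc20a1 -0.17 to 0.023, Slc25a37 -0.12 to 0.099, Slc25a39 -0.033 to 0.12, Slc25a4 -0.027 to 0.17, Slc28a2 -0.035 to 0.16, Slc29a3 -0.22 to 0.084, Slc2a1 -0.010 to 0.099, Slc30a1 -0.17 to 0.10, Slc38a9 -0.27 to 0.29, Slc39a6 -0.099 to 0.024, Slc40a1 -0.26 to 0.28, Slc6a6 -0.13 to 0.015, Slc7a5 -0.016 to 0.18, Slc7a6os -0.059 to 0.013. With TMM factors the difference of Slc15a4 was -1.9e-05. The lowest adjusted p of a named member under any other setting was 0.064. All genes called lower were 2 in DESeq2, 1 without a trend and 0 to 43 over the fits with a library left out, and those called higher were 0 to 2 over these. Members at an unadjusted p under 0.05 were 0 to 6 higher and 1 to 18 lower over them.

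The labels do not say whether the replicate numbers pair the samples. Correlations of same-numbered deviations were 0.06, -0.14 and 0.13, with no other pairs set beside them, so they cannot settle this. With the replicate number as a block, limma had 1 member higher and 7 lower at an unadjusted p under 0.05 (3.6%, beside 8.44% of all genes) and 0 called.

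Read depth was high in every library, and 3 libraries per group limit what the comparison can show. Genes of the glucocorticoid target list stood on both sides, and what this means for the labels was not tested. Differences of members with a mean under 100 rest on few reads.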

Other observations

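Partners that carriers need at the membrane, and regulators of nutrient uptake, were listed apart and described in the same way. Bsg (basigin), the chaperone that takes Slc16a1 to the cell surface, was the highest of the 14 partners, with normalized counts of 20310, 21103 and 23589 against 18592, 18787 and 19590. The groups did not overlap, and the log2 difference was 0.19 (limma, adjusted p = 0.62). Xpr1, which exports phosphate, was at 1722, 833 and 789.5 against 1978, 1886 and 1631, with GC-treated 1 among the vehicle-treated libraries. Its log2 difference was -0.81 (limma, adjusted p = 0.62). Without GC-treated 1 it was -1.17 (limma, adjusted p = 0.039), and Xpr1 was 1 of 45 genes (0.386%) that passed in that fit. The gene was picked with these values known, and its fits without other libraries are not given.

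Of 33 regulators of nutrient uptake 18 had a negative log2 difference, beside 51.5% of all genes, and the median was -0.04. At an unadjusted p under 0.05 limma had 0 higher and 6 lower (Txnip, Rptor, Rragd, Sesn2, Ireb2 and Hk2), beside 2.12% and 5.07% of all genes, and none passed adjustment. Txnip, which holds back glucose uptake, was at 6044, 7114 and 7482 against 8160, 8491 and 8162, and all GC-treated libraries were lower. Ireb2, the iron regulatory protein, was at 2648, 2588 and 2161 against 3167, 3145 and 3078, also without overlap.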
